A study of Solanum tuberosum with 12 samples.

Results

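The 92 sequences described here were predicted by the authors as potato miRNAs, were 22 nt long and had at least 300 counts over 12 tuber libraries. They were chosen by 3 properties of the deposited table: a predicted rather than a miRBase-derived name, the length, and the total count. The total count is a measured value, so the abundance of the members is a description and not a finding. The rule first gave 139 entries, which were collapsed to 1 entry per distinct sequence by keeping the entry with the highest total. The table held 7827 entries in all, 6595 of them predicted, and 1435 distinct predicted sequences of 22 nt. Members are named by the authors' running number and arm, as in m4033-3p. These numbers have no relation to the family numbers of miRBase.

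The samples were tubers of 4 potato (Solanum tuberosum) cultivars, Red beauty, Black kingkong, LK99 and Longshu No.7, all at an age of 150 days, with 3 libraries each. Per the labels, the cultivars were grown at a common site in the same season under matched conditions, and no cultivar received a treatment or carried a transgene. The study set out to find miRNAs that act in anthocyanin synthesis, and the labels used here give no tuber colour. Nothing in the labels says that the libraries of a cultivar came from separate plants, so the p-values below refer to library spread that may be only technical. The table lists only miRNAs, so the tuber label was not checked against tissue markers.

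Plant miRNAs are cut from hairpin precursors, mostly as duplexes of 21 nt, and guide Argonaute proteins to complementary transcripts. miRNAs of 22 nt are a smaller class, often made from a precursor with an asymmetric bulge, and many of them trigger secondary small interfering RNAs from the transcript they cut. In the Solanaceae the best known are the miR482 and miR2118 superfamily and its relatives, which target transcripts of NLR immune receptors. No targets of the members were analysed here, and a length of 22 nt does not by itself make a sequence such a trigger.

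The sequences below are those on which the results turn. They are shown 5′ to 3′, in DNA letters as deposited, with bases 2 to 8 (the seed region) in capitals. The first is the most abundant member by the entries kept, and the others mark single cultivars, splits of the cultivars or related pairs.
m4033-3p: cTTGGCAAcgatttttgtagaa
m2963-3p: tAAGCCTGagattacctttgta
m2728-5p: tCACTCGCaagaatcaagcact
m3099-3p: cAAGTCCAacggacaattcaga
m6021-5p: gTGTGTCTcctgtaccctccct
m2203-3p: tTTGTCACgacccgagagtacc
m1430-5p: tATCTGAGtagcatagggaatt
m0492-3p: gGTAGTTCgatcgtggaatttc
m4980-5p: cCTCAACTcgtctctactgtgt
m0830-5p: tTTCATCGtttagagcgttcct
m0257-3p: tCTCCTTCacatcatcaactct
m2729-3p: tCTCCTTGaagacacactctag
m1055-3p: cGACGGACaaagagacattgtc
m1832-5p: cGACGGACaatgtctctttgtc
m2067-3p: tGGTATGCtttgactgggaaag

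Of the 92 members, 41 came from a 5p arm and 51 from a 3p arm. No member equalled a sequence with a miRBase-derived name. The members had 91 distinct seeds, and m1055-3p and m1832-5p were the pair that shared one. A 5′ T, the base (U in RNA) that plant AGO1 prefers, opened 55 members (59.8%). The share was 47.3% among 93 predicted sequences of 21 nt and 57.7% among 26 of 23 nt or longer, both with a total of at least 300. It was 48.7% among 1343 predicted sequences of 22 nt below that total, and 86.7% among 30 well-counted named miRNAs of 22 nt. The GC content of the members had a median of 40.9% and ran from 18.2% to 68.2%. Of the members, 19 were listed under more than 1 entry, and for 12 of these the entries had equal totals. m2963-3p stood under 12 entries, with totals from 9402 to 17324. How reads were shared between entries of the same sequence is not stated. Levels, shares and ranks of members therefore hold for the kept entries only.

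The libraries held 5.61 to 7.35 (in 1e6 counts), and the members together made up 0.132% to 0.392% of them. That share was 0.330% to 0.392% in LK99, and within Longshu No.7 it was 0.252%, 0.249% and, in replicate 3, 0.132%. Member totals ran from 300 to 43478 counts with a median of 648.5, and m4033-3p alone held 24.5% of all 177280 member counts. Levels below are CPM, counts per 1e6 counts after TMM scaling, a scaling that aligns the bulk of the entries between libraries. They are given per library in the order of replicates 1, 2 and 3, or as mean ± SD (n = 3). All adjusted p-values are from edgeR's quasi-likelihood test, adjusted by Benjamini-Hochberg over the 1349 entries that passed the filter on low counts, with a threshold of 0.05. All 92 members passed that filter, and a member that reached 300 counts through 1 cultivar had to differ: 4 members had over 90% of their summed level in 1 cultivar. In bulk tuber RNA, fewer cells of a type and less of an miRNA per cell cannot be told apart.

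Replicate 3 of Longshu No.7 and replicate 3 of LK99 stood apart from the other libraries of their cultivars. Over the members, Pearson's r of log2 CPM was 0.976 between replicates 1 and 2 of Longshu No.7, and 0.641 and 0.651 between these and replicate 3. In LK99 it was 0.957 between replicates 1 and 2, and 0.796 and 0.757 with replicate 3. Within Black kingkong it was 0.939 to 0.968 and within Red beauty 0.935 to 0.963. Each of the 12 libraries was nearest to a library of its own cultivar, and the highest r between cultivars was 0.645. These are correlations across members within pairs of libraries, and members are not independent replicates. Longshu No.7 replicate 3 lay at least 4-fold below both other libraries in 15 of 81 members with enough counts to tell (18.5%), beside 15.1% of all tested entries. LK99 replicate 3 did so in 9 of 77 members (11.7%), beside 6.22% of all tested entries. The only other library with such a member was Red beauty replicate 2, with 1 member. This 4-fold rule, which needed at least 3 CPM in the other libraries, was chosen after the values were seen. Counts of members by pair, cultivar and split are given with and without them. So are many, but not all, calls of named members in which these libraries stood low. These libraries were doubted because members lay low in them. Smaller p-values without them follow in part from that choice and are not added support. The cause of the difference was not tested.

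**Figure D1:**
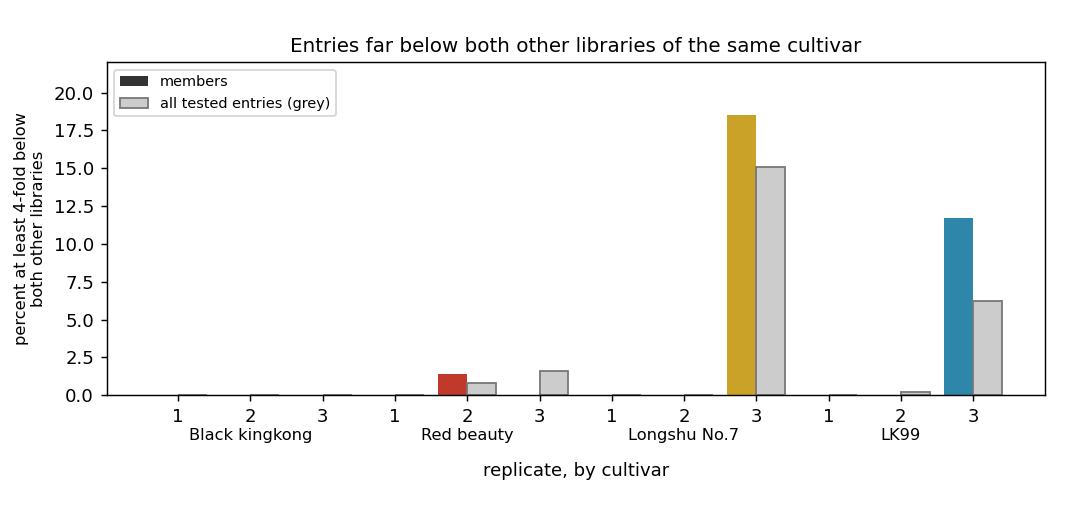
Percent of members (coloured by cultivar) and of all tested entries (grey) that lay at least 4-fold below both other libraries of the same cultivar, for each of the 12 libraries (x axis). The members reach 18.5% in Longshu No.7 replicate 3 and 11.7% in LK99 replicate 3, and stay at 0 in every other library but Red beauty replicate 2, at 1.41%.

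The first comparison asked which members differed among any of the cultivars. The test across the 4 cultivars called 69 of the 92 members (75.0%). The same test called 59.0% of all 1349 tested entries and 63.0% of the 487 tested entries with a total of at least 300. It called 62.4% of the 93 predicted sequences of 21 nt, 53.8% of the 26 of 23 nt or longer and 66.7% of the 30 named miRNAs of 22 nt. Without replicate 3 of Longshu No.7 and of LK99, 75 of the 92 members were called, beside 67.4% of all tested entries. Among named 22 nt entries, the NLR-targeting list had 8 of 17 tested entries called and the list of other triggers of secondary siRNAs 3 of 3, while the 1 entry of the small RNA pathway list, miR162-x, was not called. At 18 members no test of any kind passed.

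The pairwise comparisons counted members higher in each cultivar, and they share libraries, so they are not independent of each other. Between Black kingkong and Red beauty, 26 members were higher in Black kingkong and 29 in Red beauty, where 20.2% and 21.8% of all tested entries were called in these directions. Between Black kingkong and Longshu No.7, 27 were higher in Longshu No.7 and 13 in Black kingkong, beside 19.6% and 14.6% of all entries. Between Black kingkong and LK99, 6 were higher in Black kingkong and 21 in LK99, beside 12.5% and 18.8%. Black kingkong thus had fewer members on its higher side than on its lower side in all 3 of its comparisons, and the background leaned the same way. Against Red beauty this order turned with library size alone, at 26 higher in Black kingkong and 25 in Red beauty, and with scaling that left out the miR166 entries, at 27 and 26. Between Red beauty and Longshu No.7, 8 were higher in Red beauty and 21 in Longshu No.7, beside 10.3% and 13.6%. Between Red beauty and LK99, 16 were higher in Red beauty and 27 in LK99, beside 14.5% and 19.2%. Longshu No.7 and LK99 had the fewest differences, with 10 members higher in each, beside 8.23% and 10.1%. Scaling by library size alone moved the median log2 difference of all entries by -0.36 in this pair and by -0.51 between Red beauty and LK99. With that scaling, 8 members were higher in Longshu No.7 and 17 in LK99, and 11 were higher in Red beauty and 37 in LK99. The share of all entries called is not given for these other scalings. Their counts thus describe the scaling and say nothing particular to the members.

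Leaving out replicate 3 of Longshu No.7 and of LK99 raised the number of members called in each pair, and that of all entries too. Between Red beauty and Longshu No.7 it became 17 higher in Red beauty and 29 in Longshu No.7, beside 15.5% and 19.3% of all entries. Between Longshu No.7 and LK99 it became 15 and 21, beside 12.1% and 13.9%. For Black kingkong it became 27 higher and 35 lower against Red beauty, 18 and 32 against Longshu No.7, and 10 and 29 against LK99. All 1349 tested entries gave 322 and 350, 271 and 318, and 240 and 298 in the same order. For Red beauty against LK99 it became 22 higher and 29 lower, beside 241 and 289 of the 1349 entries. The median log2 difference over the members, in the order of the pairs above, was -0.13, -0.23, -0.36, -0.19, -0.14 and -0.13. Over all tested entries it was 0, -0.14, -0.06, -0.05, 0.01 and 0.02. With a cultivar at 0 counts set to the bound that a floor of 3 counts gives, the members' medians were -0.13, -0.25, -0.37, -0.25, -0.14 and -0.14.

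**Figure D2:**
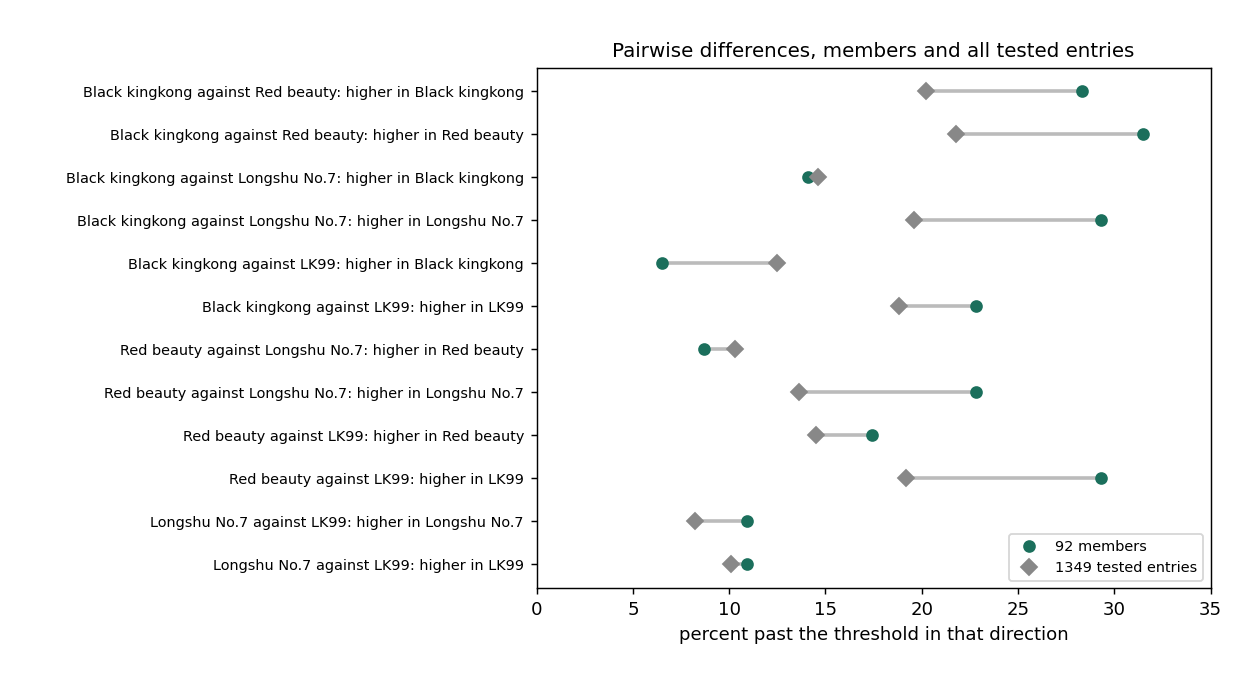
Percent past the threshold in each direction of the 6 pairwise comparisons (y axis), for the 92 members (circles) and all 1349 tested entries (diamonds). The members lie above the entries in 9 of the 12 directions; the 26 members higher in Black kingkong than in Red beauty compare with 20.2% of all entries.

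Some members set 1 cultivar apart from each of the other 3. Of these, 17 belonged to Red beauty and 13 to Black kingkong, against 4 to Longshu No.7 and 6 to LK99. In Red beauty 4 were higher and 13 lower, where 4.89% and 4.37% of all tested entries were. In Black kingkong 1 was higher and 12 were lower, where 4.23% and 7.12% were. Longshu No.7 had 2 higher and 2 lower, beside 1.93% and 1.41%, and LK99 had 3 higher and 3 lower, beside 3.04% and 2.08%. Without replicate 3 of Longshu No.7 and of LK99 these became 9 and 16 for Red beauty, beside 6.75% and 6.89% of all entries, and 4 and 17 for Black kingkong, beside 7.26% and 10.2%. They became 6 and 5 for Longshu No.7, beside 4.15% and 2.37%, and 10 and 4 for LK99, beside 4.37% and 2.15%.

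**Figure D3:**
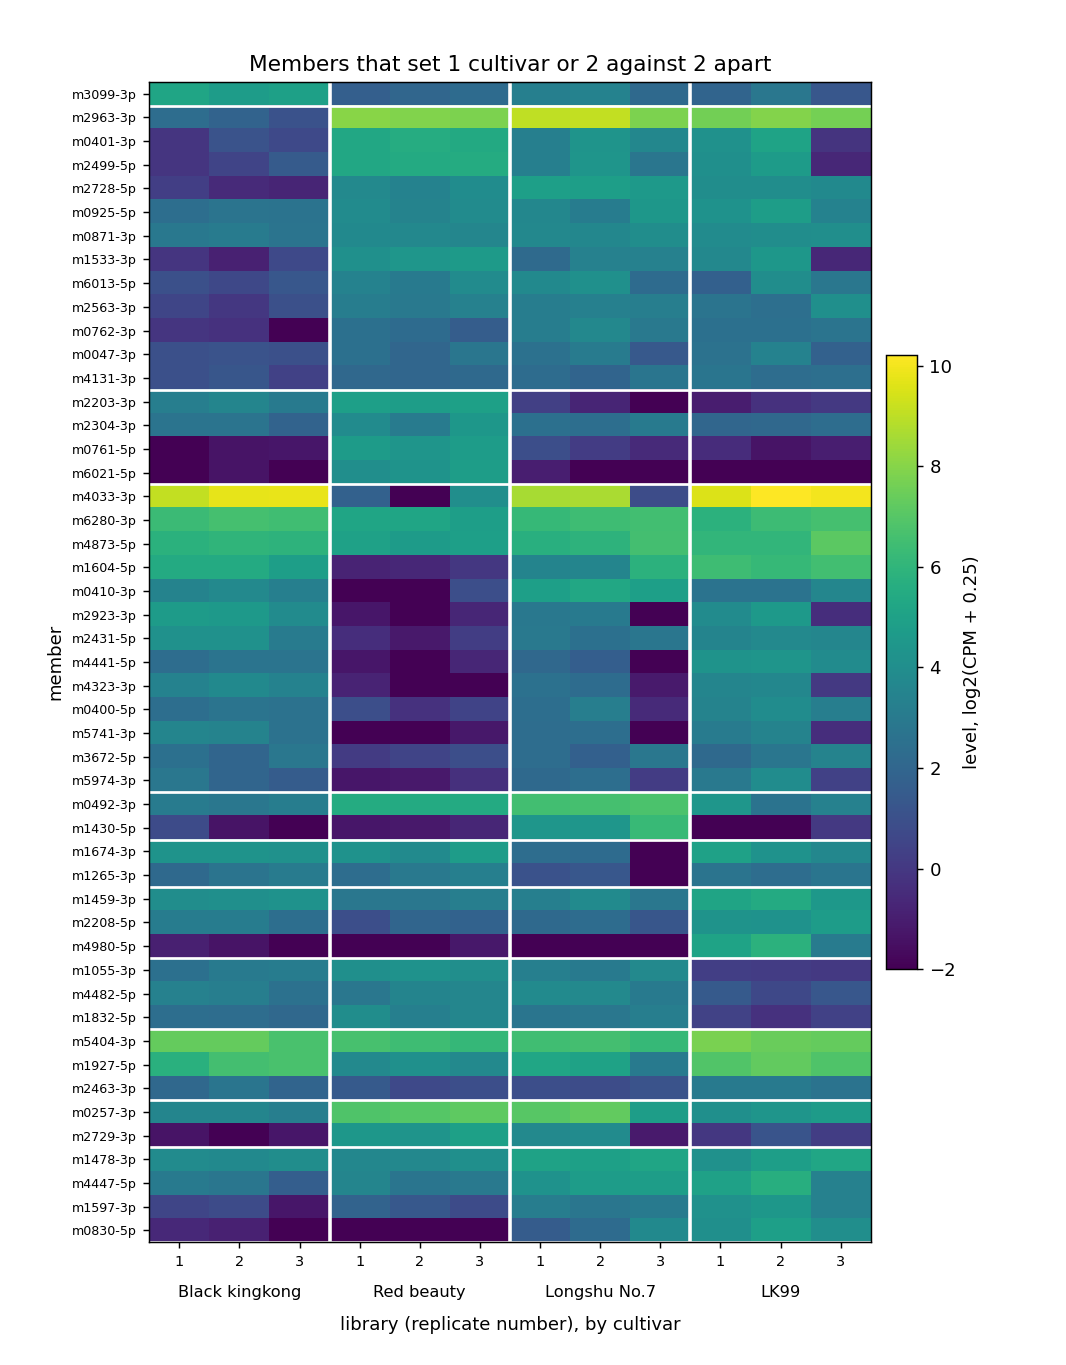
Level, as log2(CPM + 0.25), of the 49 members that set 1 cultivar or a pair of cultivars apart (rows, grouped by pattern) in each of the 12 libraries (columns, grouped by cultivar). m4033-3p is bright in 8 libraries and dark in the 3 Red beauty libraries and in Longshu No.7 replicate 3.

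The most abundant member, m4033-3p, was nearly missing from Red beauty. Its level was 3.18, 0 and 16.2 CPM in Red beauty, 551, 877 and 893 in Black kingkong, 769.9, 1189 and 1037 in LK99, and 389, 410.0 and 1.51 in Longshu No.7. The 3 Red beauty libraries lay below every library of Black kingkong and LK99, but overlapped Longshu No.7 through its replicate 3. The log2 difference was 6.90 ± 1.53 (SE) between Black kingkong and Red beauty (adjusted p = 0.0028) and -7.27 ± 1.56 between Red beauty and LK99 (adjusted p = 0.0029). Between Red beauty and Longshu No.7 it was -5.37 ± 1.43 (adjusted p = 0.015), and -5.95 without the doubted replicates 3 (adjusted p = 3.3e-06). The smaller p-value follows in part from leaving out the Longshu No.7 library in which m4033-3p was low. Without Red beauty replicate 1, or with these cultivars fitted alone, the call between Red beauty and Longshu No.7 was lost, with adjusted p up to 0.073. Of the scarce predicted sequences that pair with m4033-3p, m4211-3p and m4033-5p are described here, and m4211-3p was called across cultivars. Another, m3900-3p, with 59 counts in all and 9 Watson-Crick pairs over 19 positions, is not described. m4211-3p, with 113 counts in all, forms 17 Watson-Crick pairs with it over 20 positions, and stood at 0.126 ± 0.109 CPM in Red beauty, 1.72 ± 0.925 in Black kingkong, 2.95 ± 1.11 in LK99 and 0.367 ± 0.379 in Longshu No.7 (adjusted p = 0.0017 across cultivars). It was lower in Red beauty than in Black kingkong (adjusted p = 0.0055) and LK99 (adjusted p = 0.0015), and its difference between Red beauty and Longshu No.7 did not pass (adjusted p = 0.34). Its mean in Red beauty lay below the 0.181 CPM that 3 counts over the cultivar give. Its name is that of a 3p arm, as is that of m4033-3p. The 5p partner of the same running number, m4033-5p, forms 13 Watson-Crick pairs and was not called: its level was 4.26 ± 0.869, 4.12 ± 1.26, 6.41 ± 1.66 and 3.21 ± 0.673 CPM in Red beauty, Black kingkong, LK99 and Longshu No.7 (adjusted p = 0.11).

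Another 3 members low in Red beauty were, like m4033-3p, low in replicate 3 of Longshu No.7, and also in LK99 replicate 3. m2923-3p had 1, 0 and 2 counts in Red beauty, 190, 167 and 86 in Black kingkong, 122, 163 and 4 in LK99, and 56, 46 and 0 in Longshu No.7. m5741-3p had 0, 0 and 1 in Red beauty, 85, 73 and 34 in Black kingkong, 68, 74 and 4 in LK99, and 39, 30 and 0 in Longshu No.7. m4323-3p had 2, 0 and 0 in Red beauty, 78, 92 and 62 in Black kingkong, 95, 86 and 6 in LK99, and 45, 28 and 1 in Longshu No.7. All 3 were therefore near 0 in the same 5 libraries, the 3 of Red beauty and the 2 that stood apart. Over the 12 libraries, Pearson's r of log2 CPM between them was 0.978 to 0.994, a description of points that share libraries and depth. Black kingkong held 122 times the level of Red beauty for m2923-3p (95% counting interval 41.4 to 593) and 158 times for m5741-3p (28.1 to 6291). The adjusted p against Red beauty was 0.0025 and 0.0027 for Black kingkong and 0.0066 and 0.0061 for LK99. Against Longshu No.7 it was 0.040 for m2923-3p and 0.026 for m5741-3p, and both calls were lost without any 1 of these libraries: replicates 1 and 2 of Longshu No.7 and each of Red beauty, and for m2923-3p also without any 1 of Black kingkong or LK99 replicate 1, with adjusted p up to 0.12. Without the doubted replicates 3, the log2 difference from Red beauty to Longshu No.7 was -5.23 for m2923-3p and -5.99 for m5741-3p (adjusted p = 2.1e-06 and 3.9e-06), and to LK99 -6.58 and -6.90 (adjusted p = 1.2e-08 and 1.0e-07). These smaller p-values follow in part from leaving out the libraries in which both members lay low, and are not added support. m5974-3p, with 1, 1 and 3 counts in Red beauty, was the fourth member that lay 4-fold low in both doubted libraries.

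The members higher in Red beauty than in each other cultivar were m6021-5p, m0761-5p, m2203-3p and m2304-3p. m6021-5p was read almost only there, with 96, 100 and 148 counts in Red beauty, 0, 0 and 0 in LK99, 2, 0 and 0 in Longshu No.7, and 0, 1 and 0 in Black kingkong. Its level in Red beauty, 20.9 ± 5.74 CPM, was at least 158-fold higher than in LK99, by the floor of 3 counts over a cultivar, which is 0.131 CPM there. It was 417 times that of Black kingkong (95% counting interval 74.3 to 16512) and 190.5 times that of Longshu No.7 (52.3 to 1579). The adjusted p against Red beauty was 1.0e-05 for Black kingkong, 0.00012 for Longshu No.7 and 1.2e-05 for LK99, and all 3 held in every alternative tried. However, m6021-5p passed the rule on total count only through its counts in Red beauty. A difference was therefore fixed by the selection, and neither these p-values nor their stability is independent support for it. m2203-3p was graded, at 29.0 ± 1.55 CPM in Red beauty, 9.53 ± 1.73 in Black kingkong, 0.533 ± 0.272 in LK99 and 0.451 ± 0.513 in Longshu No.7. Every library of Red beauty lay above every library of Black kingkong, and these lay above all 6 others. Its log2 difference was -1.60 ± 0.44 between Black kingkong and Red beauty (adjusted p = 0.010) and 4.16 ± 0.57 between Black kingkong and Longshu No.7 (adjusted p = 0.00014). The call of m2304-3p between Red beauty and Longshu No.7 (adjusted p = 0.03) was lost in 7 of 21 alternatives, with adjusted p up to 0.15.

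Of the members that set Black kingkong apart, 12 of 13 were lower there. m2963-3p, the member of the second highest level, stood at 261, 237 and 221 CPM in Red beauty, 4.98, 3.51 and 1.88 in Black kingkong, 194, 247 and 202 in LK99, and 523, 553 and 223 in Longshu No.7. Black kingkong overlapped no other cultivar, and the other 3 overlapped among themselves. The log2 difference from Black kingkong was -6.09 ± 0.44 for Red beauty (adjusted p = 4.5e-07), -6.95 ± 0.46 for Longshu No.7 (adjusted p = 1.4e-07) and -5.93 ± 0.44 for LK99 (adjusted p = 6.0e-07). m2728-5p followed it, at 12.9 ± 2.27 CPM in Red beauty, 0.575 ± 0.323 in Black kingkong, 14.97 ± 1.08 in LK99 and 27.0 ± 3.39 in Longshu No.7. Its log2 differences from Black kingkong were -4.41 ± 0.39, -5.48 ± 0.39 and -4.62 ± 0.38 (adjusted p = 1.8e-06, 1.9e-07 and 1.2e-06). m0762-3p, at 0.420 ± 0.366 CPM in Black kingkong and 4.25 to 9.67 in the others, completed the trio, and r between the 3 was 0.962 to 0.989 over 12 libraries. Their sequences share no seed.

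A second trio low in Black kingkong, m0401-3p, m2499-5p and m1533-3p, was highest in Red beauty. m0401-3p stood at 39.6, 47.1 and 43.2 CPM in Red beauty, 0.673, 1.90 and 1.37 in Black kingkong, 18.1, 33.4 and 0.648 in LK99, and 9.58, 19.9 and 12.5 in Longshu No.7. LK99 replicate 3 lay at the level of Black kingkong, while replicates 1 and 2 lay within or above the range of Longshu No.7. m2499-5p and m1533-3p had 3 counts each in LK99 replicate 3, beside 138 and 179, and 106 and 152, in replicates 1 and 2. The log2 difference of m0401-3p between Black kingkong and Red beauty was -5.03 ± 0.94 (adjusted p = 0.0010). Between Black kingkong and LK99 it was -3.71 ± 0.91 (adjusted p = 0.0076), and -4.28 without the doubted replicates 3 (adjusted p = 1.1e-07). Between Black kingkong and Longshu No.7 the adjusted p was 0.011, 0.025 and 0.016 for the 3 members. These last calls were lost without Black kingkong replicate 1, and for m2499-5p and m1533-3p also without its replicate 2, with adjusted p up to 0.094. That of m2499-5p was also lost without Longshu No.7 replicate 2, and its call to LK99 (adjusted p = 0.019) was lost without LK99 replicate 2 or Black kingkong replicate 1 or 2, with adjusted p up to 0.079. Without the doubted replicates 3 the adjusted p to LK99 was 5.4e-07 for m2499-5p and 3.8e-07 for m1533-3p. For all 3 members the smaller p-value follows in part from leaving out the LK99 library in which they lay low.

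The 1 member higher in Black kingkong than in each other cultivar was m3099-3p. It stood at 3.01, 3.86 and 4.60 CPM in Red beauty, 36.2, 26.7 and 30.4 in Black kingkong, 3.61, 6.97 and 2.20 in LK99, and 9.33, 10.3 and 4.32 in Longshu No.7. The log2 difference was 3.02 ± 0.45 to Red beauty (adjusted p = 0.00018), 1.95 ± 0.42 to Longshu No.7 (adjusted p = 0.0034) and 2.87 ± 0.44 to LK99 (adjusted p = 0.00035). Its other arm, m3099-5p of 21 nt, was the more abundant strand, with 8512 counts against 941, and was also higher in Black kingkong than in each other cultivar (adjusted p = 0.0003, 0.00089 and 0.00015 in the same order). That arm stood at 49.4 ± 14.9 CPM in Red beauty, 284 ± 17.5 in Black kingkong, 37.5 ± 18.4 in LK99 and 61.3 ± 20.8 in Longshu No.7.

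Longshu No.7 was set apart by m1430-5p and m0492-3p on the higher side. m1430-5p had 169, 122 and 346 counts in Longshu No.7, 11, 1 and 0 in Black kingkong, 1, 1 and 2 in Red beauty, and 0, 0 and 6 in LK99. Its mean level there, 39.0 ± 31.0 CPM, was carried most by replicate 3, at 74.8 CPM beside 21.3 and 20.97. The log2 difference was -6.03 ± 0.98 from Black kingkong to Longshu No.7 (adjusted p = 0.00049), and -5.13 without the doubted replicates 3 (adjusted p = 6.7e-07). However, m1430-5p passed the rule on total count only through its counts in Longshu No.7. A difference was therefore fixed by the selection, and these p-values are not independent support for it. m0492-3p stood at 99.6 ± 8.80 CPM in Longshu No.7, 44.1 ± 0.946 in Red beauty, 12.6 ± 7.96 in LK99 and 7.95 ± 1.00 in Black kingkong. Each library of Longshu No.7 lay above each of Red beauty, and these lay above all others. Its log2 difference between Red beauty and Longshu No.7 was -1.18 ± 0.36 (adjusted p = 0.031), and this call was lost without any 1 of the Red beauty libraries or without Longshu No.7 replicate 2, with adjusted p up to 0.093.

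The members lower in Longshu No.7, m1674-3p and m1265-3p, were at 0 counts in its replicate 3. m1674-3p stood at 4.91, 4.64 and 0 CPM there, and at 19.7 ± 6.20 in Red beauty, 18.8 ± 0.889 in Black kingkong and 20.9 ± 10.0 in LK99 (adjusted p = 0.016, 0.014 and 0.016). These calls were lost with the pairs fitted alone, that to Red beauty also without its replicate 3 and that to LK99 without its replicate 1, with adjusted p up to 0.14. Without the doubted replicates 3 its log2 differences from Black kingkong, Red beauty and LK99 to Longshu No.7 kept their direction, with adjusted p = 0.00011, 0.00011 and 4.9e-05. The call of m1265-3p to LK99 (adjusted p = 0.036) was lost in 9 of 21 alternatives, with adjusted p up to 0.17. m3336-3p, at 21.3, 16.7 and 0 CPM in Longshu No.7 and 50.04 to 66.6 on average elsewhere, had the same shape. Its difference from Red beauty passed narrowly (2.38 ± 0.80, adjusted p = 0.046), was lost in 15 of 22 alternatives with adjusted p up to 0.13, and was 1.81 without the doubted replicates 3 (adjusted p = 1.6e-05). For m1674-3p and m3336-3p, the smaller p-values follow in part from leaving out the Longshu No.7 library in which both were at 0.

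LK99 had m4980-5p nearly to itself. It had 282, 389 and 63 counts in LK99, 2, 1 and 0 in Black kingkong, 0, 0 and 1 in Red beauty, and 0, 0 and 0 in Longshu No.7. Its level, 32.9 ± 24.2 CPM, was at least 196-fold higher than in Longshu No.7, by the floor of 3 counts over a cultivar, which is 0.163 CPM there. It was 215 times that of Black kingkong (95% counting interval 73.2 to 1044) and 532 times that of Red beauty (95.2 to 21042). The adjusted p against LK99 was 0.00012, 0.00011 and 0.00012 for Black kingkong, Red beauty and Longshu No.7. However, m4980-5p passed the rule on total count only through its counts in LK99. A difference was therefore fixed by the selection, and the p-values of this member are not independent support for it. Replicate 3 of LK99, at 8.17 CPM, lay below replicates 1 and 2, at 34.0 and 56.5, and far above every library of the other cultivars. Without the doubted replicates 3 the log2 difference was -8.08 from Black kingkong to LK99 (adjusted p = 6.9e-10) and -9.15 from Red beauty (adjusted p = 1.7e-09). Those smaller p-values follow in part from leaving out the LK99 library in which m4980-5p was lowest. m2208-5p, at 21.4 ± 4.54 CPM in LK99 and 2.88 to 7.37 on average elsewhere, was also higher there, as was m1459-3p. The call of m1459-3p to Black kingkong (adjusted p = 0.034) was lost in 7 of 22 alternatives, with adjusted p up to 0.15.

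**Figure D4:**
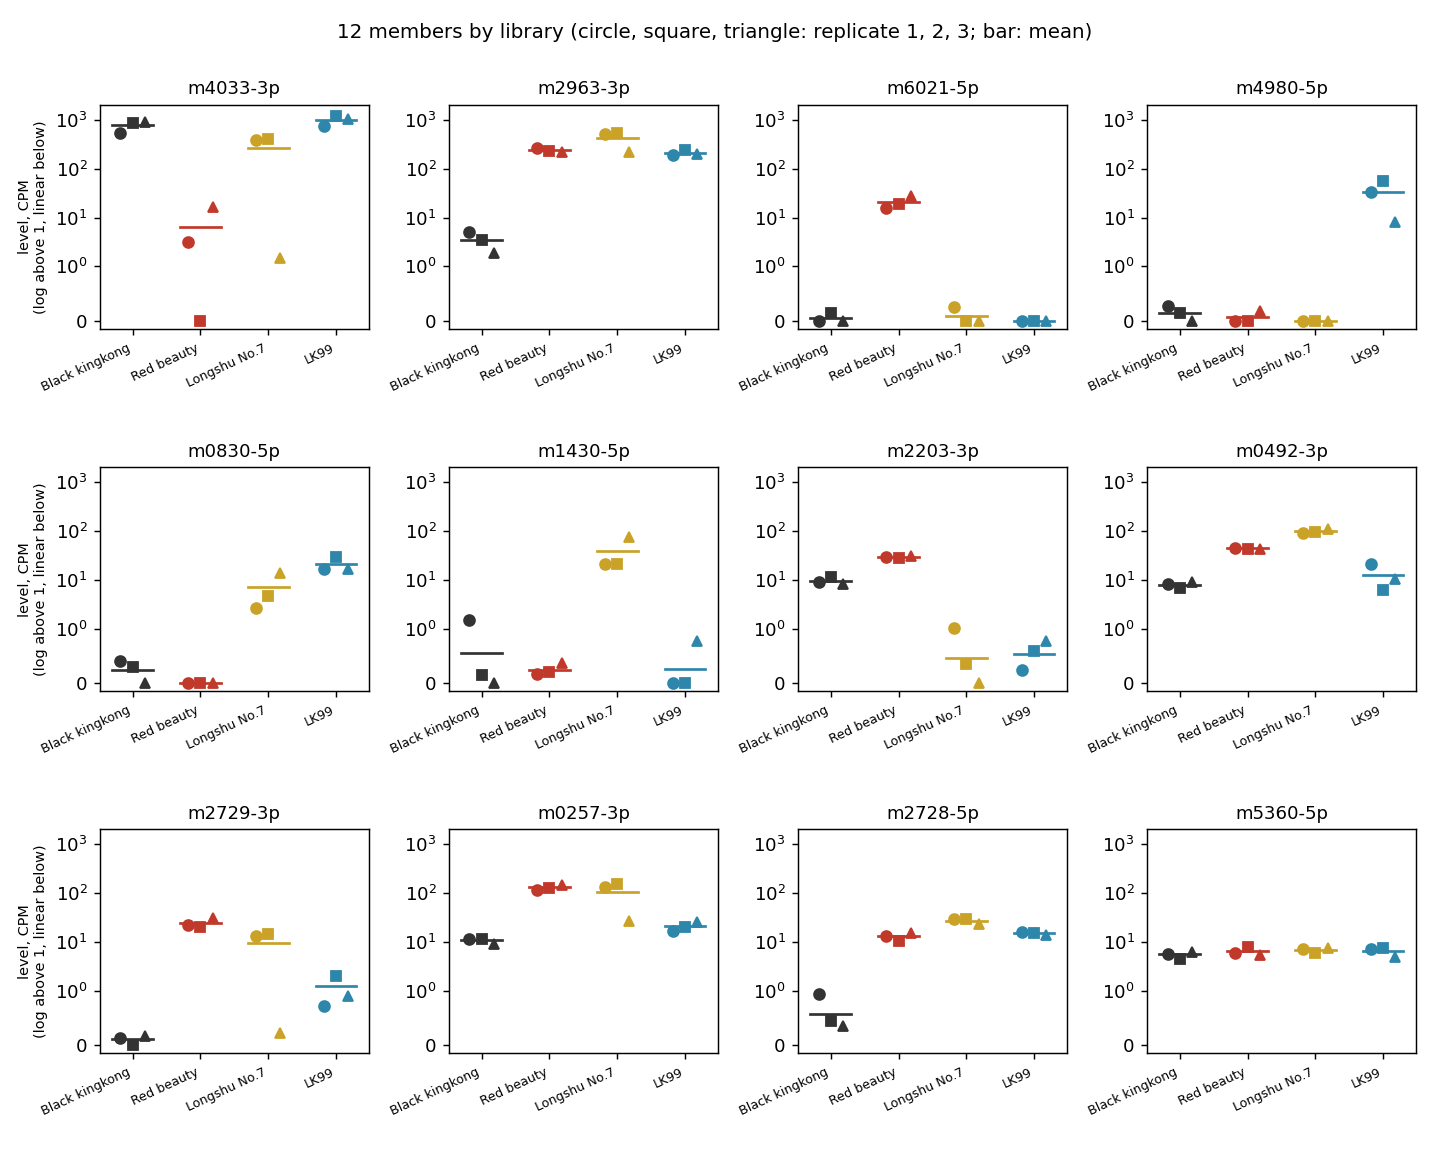
Level in CPM (y axis, log above 1 and linear below) of 12 members in each library, by cultivar (x axis); symbols mark the replicate and bars the mean of 3 libraries. m6021-5p, m4980-5p and m1430-5p are near 0 outside 1 cultivar, m2963-3p is low in Black kingkong alone, and m5360-5p is level in all 4.

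Other members separated the cultivars into pairs. Black kingkong and Red beauty, the cultivars with a colour in their names, stood against Longshu No.7 and LK99 with 1 member higher and 4 lower, where 0.667% and 2.82% of all tested entries did so. Black kingkong and LK99 stood against Red beauty and Longshu No.7 with 3 higher and 3 lower, beside 2.59% and 1.63%. Without the doubted replicates 3, the former split had 1 higher and 3 lower, beside 14 and 56 of the 1349 tested entries. The latter had 7 and 7, beside 60 and 39 of them. No member separated Black kingkong and Longshu No.7 from Red beauty and LK99, beside 1.19% and 0.964% of all entries. This count of 0 was the same at an unadjusted p under 0.05 in edgeR and at an adjusted p in DESeq2, and became 2 members without the doubted replicates 3, 1 in each direction, beside 1.93% and 1.33% of all entries.

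The member higher in the first split was m2203-3p, given above, and the strongest of the 4 lower ones was m0830-5p. It had 0, 0 and 0 counts in Red beauty, 3, 2 and 0 in Black kingkong, 140, 200 and 126 in LK99, and 21, 27 and 64 in Longshu No.7. Its level in LK99, 20.8 ± 7.19 CPM, was at least 113-fold higher than in Red beauty, and that in Longshu No.7, 7.04 ± 5.96 CPM, at least 33.7-fold higher, by the floor of 3 counts over a cultivar (0.181 CPM there). The log2 difference from Black kingkong was -4.71 ± 0.82 for Longshu No.7 (adjusted p = 0.0013) and -6.29 ± 0.82 for LK99 (adjusted p = 0.00021). m1597-3p, m4447-5p and m1478-3p made up the rest, with smallest log2 differences of 1.67, 1.53 and 0.93. Their weakest calls were lost in some of 22 alternatives. For Red beauty against Longshu No.7, adjusted p was 0.027 for m1597-3p (lost in 5, up to 0.11) and 0.046 for m4447-5p (lost in 12, up to 0.15). For m1478-3p, Black kingkong against LK99, it was 0.031 (lost in 7, up to 0.11).

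In the split of Black kingkong and LK99 from the other 2 cultivars, m0257-3p, m2729-3p and m0492-3p, given above, were lower and m1927-5p, m2463-3p and m5404-3p higher. m0257-3p stood at 116, 128 and 147 CPM in Red beauty, 11.4, 11.6 and 9.22 in Black kingkong, 16.5, 20.3 and 25.5 in LK99, and 130.1, 153 and 27.2 in Longshu No.7. The low and high cultivars did not overlap, although Longshu No.7 replicate 3 came close to LK99. The log2 difference was -3.60 ± 0.51 between Black kingkong and Red beauty (adjusted p = 0.00012) and 2.31 ± 0.48 between Longshu No.7 and LK99 (adjusted p = 0.0038). The latter was lost with the pair fitted alone, at adjusted p = 0.051, and was 2.94 without the doubted replicates 3 (adjusted p = 1.5e-07). m2729-3p had 130, 103 and 167 counts in Red beauty, 1, 0 and 1 in Black kingkong, 6, 14 and 7 in LK99, and 106, 86 and 1 in Longshu No.7. Red beauty held 242 times its level in Black kingkong (95% counting interval 66.7 to 2008; adjusted p = 0.00025). Its call between Longshu No.7 and LK99 (adjusted p = 0.026) was lost in 7 of 22 alternatives, with adjusted p up to 0.13, and was 1.3e-05 without the doubted replicates 3. Both m0257-3p and m2729-3p lay low in Longshu No.7 replicate 3, so their smaller p-values without it are not added support. Pearson's r between m0257-3p and m2729-3p was 0.958 over 12 libraries. Of the higher members, m5404-3p, the third in level, stood at 141 ± 30.7 and 183 ± 30.2 CPM in Black kingkong and LK99 and at 85.8 ± 15.03 and 84.1 ± 10.9 in Red beauty and Longshu No.7. Its Black kingkong differences, 0.72 ± 0.25 and 0.75 ± 0.25 (both adjusted p = 0.036), were lost in 7 and 11 of 22 alternatives, with adjusted p up to 0.13.

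Among members with a near-identical sequence, 1 pair had opposite patterns. m1604-5p and m0761-5p overlap with a shift of 1 base and differ at 2 positions, shown here in capitals and counted from 1 at the 5′ end of m1604-5p (T16C and G19A from m1604-5p to m0761-5p).
m1604-5p: ttttgtatgactcacTcgGgaa
m0761-5p: tttgtatgactcacCcgAgaaa
m1604-5p stood at 0.334, 0.386 and 0.735 CPM in Red beauty, 44.3, 44.4 and 28.7 in Black kingkong, 85.0, 73.0 and 92.7 in LK99, and 11.2, 11.7 and 57.0 in Longshu No.7. m0761-5p stood at 25.9, 20.5 and 26.8 CPM in Red beauty, 0, 0.146 and 0.171 in Black kingkong, 0.482, 0.145 and 0.259 in LK99, and 1.64, 0.859 and 0.432 in Longshu No.7. Red beauty was low for the first and high for the second, and its libraries overlapped no other cultivar in either. The log2 difference between Black kingkong and Red beauty was 6.28 ± 0.72 for m1604-5p (adjusted p = 2.3e-05) and -7.68 ± 0.63 for m0761-5p (adjusted p = 1.1e-06). Between Red beauty and LK99 it was -7.38 ± 0.74 and 6.24 ± 0.55 (adjusted p = 1.2e-05 and 5.0e-06). However, m0761-5p passed the rule on total count only through its counts in Red beauty. A difference in m0761-5p was therefore fixed by the selection, and its p-values are not independent support for it. How a read that fits both m1604-5p and m0761-5p was assigned is not stated in the sources used here.

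A second pair of variants was m1478-3p and the 22 nt predicted sequence m2936-3p, which differ at 1 position (A5G from m1478-3p to m2936-3p, counted from the 5′ end).
m1478-3p: tctcAgaaaatgtagtctgcct
m2936-3p: tctcGgaaaatgtagtctgcct
m1478-3p stood at 14.0 ± 2.26 CPM in Red beauty, 14.7 ± 0.890 in Black kingkong, 28.0 ± 10.1 in LK99 and 33.0 ± 2.89 in Longshu No.7. m2936-3p, below the total of 300 with 233 counts, stood at 10.7 ± 2.22, 0.171 ± 0.296, 0.352 ± 0.0885 and 2.10 ± 1.82 in the same order. The first was 1.24 lower on the log2 scale in Red beauty than in Longshu No.7 (-1.24 ± 0.30, adjusted p = 0.0089), and the second higher (2.28, adjusted p = 0.033). In Red beauty the 2 variants stood at like levels, and in the other cultivars m1478-3p lay far above m2936-3p.

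The other near-identical pairs named here moved together. m3336-3p and m0461-3p overlap with a shift of 2 bases, had r of 0.9898 over 12 libraries and were both at 0 in Longshu No.7 replicate 3. m5925-3p differs from the 21 nt m1991-3p by 1 base at the 3′ end. It stood at 12.1 ± 0.696 CPM in Red beauty, 158 ± 34.5 in Black kingkong, 109 ± 15.3 in LK99 and 28.9 ± 23.7 in Longshu No.7, and m1991-3p at 1.62 ± 0.434, 12.5 ± 3.62, 10.4 ± 1.99 and 2.11 ± 1.84. Both were higher in Black kingkong than in Red beauty, by 3.70 and 2.93 on the log2 scale (adjusted p = 0.0015 and 0.0031). m5616-3p is the potato miRNA stu-miR8044-3p with 1 more base at its 3′ end. Its level was 1.06 ± 0.921 CPM in Longshu No.7 and 6.99 ± 2.43 in Black kingkong, and that of stu-miR8044-3p 13.4 ± 11.4 and 72.7 ± 10.8. Both were lower in Longshu No.7 than in Black kingkong, by 2.60 ± 0.59 (adjusted p = 0.0047) and 2.42 (adjusted p = 0.025). For m5616-3p the difference was 2.11 without the doubted replicates 3 (adjusted p = 0.00039), where its Longshu No.7 library at 0 was left out. stu-miR8044-3p was not called across cultivars (adjusted p = 0.071), nor between Longshu No.7 and Red beauty (0.075) or LK99 (0.15). It stood at 20.3, 19.8 and 0.216 CPM in the libraries of Longshu No.7. In all, 16 members lay near any other sequence of the table, within a shift of 3 bases and 2 mismatches, and only m5616-3p and m0137-5p near a named one.

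The 2 members that share a seed, m1055-3p and m1832-5p, are also complementary: 17 bases of one are the exact reverse complement of the other. m1055-3p stood at 17.2 ± 1.03 CPM in Red beauty, 7.22 ± 1.54 in Black kingkong, 0.871 ± 0.0930 in LK99 and 10.2 ± 2.85 in Longshu No.7. m1832-5p stood at 12.3 ± 3.16, 4.73 ± 0.553, 0.901 ± 0.278 and 7.50 ± 1.37 in the same order. Both were lowest in LK99 without overlap, and r was 0.972. Between Longshu No.7 and LK99 the log2 difference was 3.52 ± 0.35 (adjusted p = 1.9e-05) and 3.01 ± 0.37 (adjusted p = 9.5e-05). The third member lower in LK99 than in each other cultivar was m4482-5p, at 2.01 ± 0.634 CPM there and 8.32 to 11.7 on average elsewhere (adjusted p = 0.0019 to Black kingkong, 0.00077 to Red beauty and 0.00078 to Longshu No.7).

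**Figure D5:**
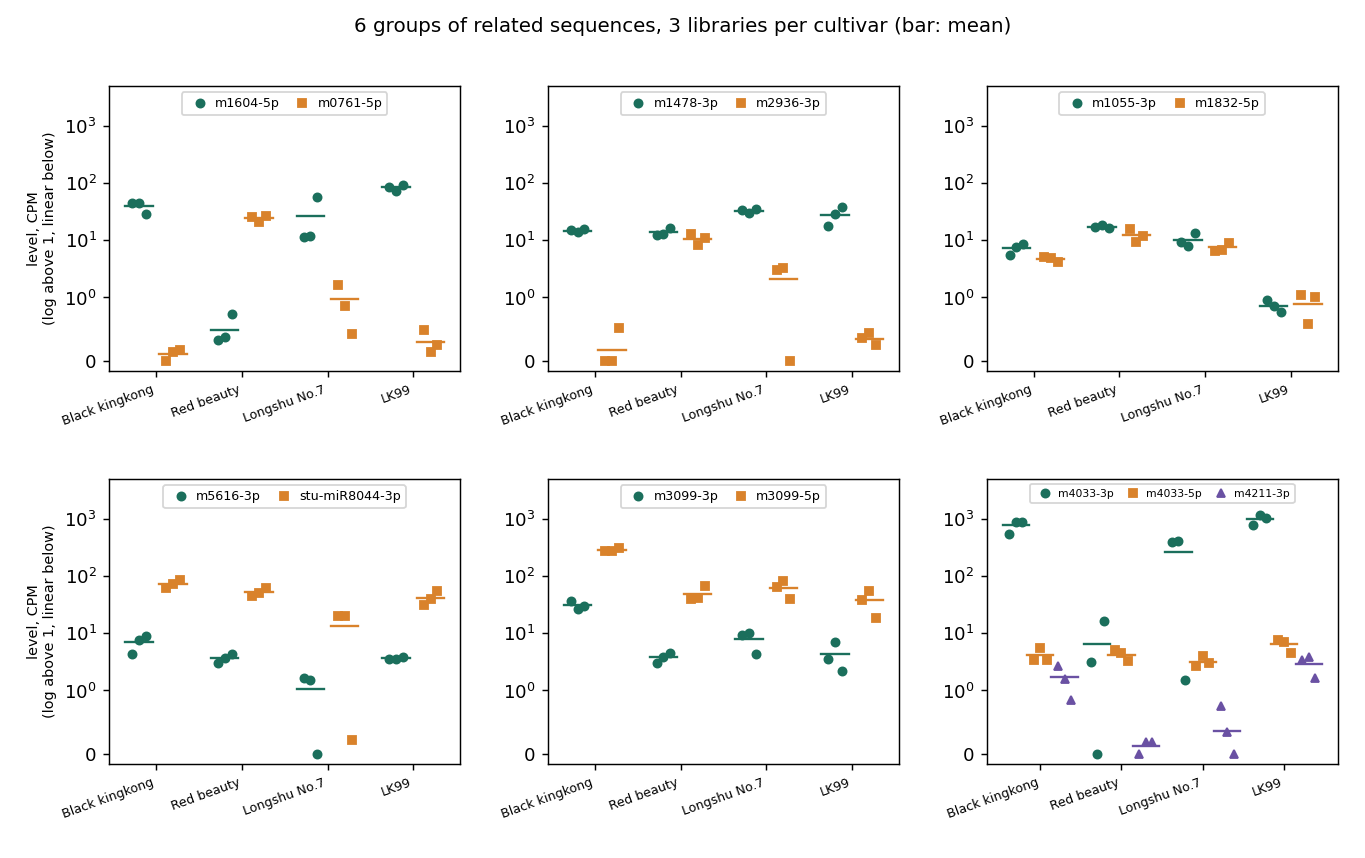
Level in CPM (y axis, log above 1 and linear below) of 6 groups of related sequences in each library, by cultivar (x axis); bars are means of 3 libraries. m1604-5p and m0761-5p cross in Red beauty, m1055-3p and m1832-5p are both low in LK99, and m4033-3p ranges from 0 to 1189 CPM, m4211-3p is lowest on average in Red beauty, and m4033-5p stays between 2.65 and 7.71 CPM.

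A miRNA precursor yields a guide strand and a usually scarcer partner from its other arm. For 13 members the table listed the other arm under the same running number, and the member was the more abundant strand in 10. The exceptions were m3099-3p, m1715-3p (2540 counts against 2737) and m4482-5p (607 against 1103). Members were chosen by a minimum total and their partners were not, so the count of 10 is largely fixed by the rule. It does not show that the members are guide strands. Of the 10 partner arms that passed the filter, 7 were called across cultivars, beside 59.0% of all 1349 tested entries. With 10 arms, that count says nothing particular to them. Their r with the member ran from -0.20 to 0.97 over 12 libraries with a median of 0.77. Of 21 pairwise calls of these members, 13 passed with the same sign in the other arm and 0 with the opposite sign. The other 8 did not pass in the other arm, which does not show that the arms differ.

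m2067-3p pairs with a named miRNA. Set against miR5300-x with overhangs of 2 nt, it forms 16 Watson-Crick pairs and 1 G-U pair over 20 positions. miR5300 is one of the 22 nt miRNAs known in tomato to target NLR transcripts.
miR5300-x: tCCCCAGTccaggcattccaac
miR5300-x had 798439 counts in all and m2067-3p 3446, and no other member paired that well with a named miRNA from another species. m2067-3p stood at 34.0 ± 12.9 CPM in Red beauty, 49.2 ± 7.51 in Black kingkong, 47.7 ± 15.1 in LK99 and 43.2 ± 5.26 in Longshu No.7. miR5300-x stood at 8320 ± 2778, 11725 ± 1163, 10503 ± 1849 and 10157 ± 899.6 CPM in the same order. Neither differed among cultivars beyond the spread between libraries (adjusted p = 0.43 and 0.29).

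The members with the smallest spread of cultivar means were m5360-5p, m4214-3p and m3894-3p. m5360-5p stood at 6.02, 7.92 and 5.33 CPM in Red beauty, 5.66, 4.54 and 6.32 in Black kingkong, 6.99, 7.55 and 4.80 in LK99, and 7.06, 5.84 and 7.35 in Longshu No.7. All 4 cultivars overlapped, and the adjusted p across them was 0.83. m4214-3p, at 5.16 to 6.52 CPM on average (adjusted p = 0.81), and m3894-3p, at 5.496 to 7.33 (adjusted p = 0.73), were alike in this. These levels rest on 85 to 166 counts per cultivar, and tests at this depth do not show that the levels are equal.

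Among members abundant enough to be measured well but less sharply divided, m6280-3p and m4873-5p were lower in Red beauty than in each other cultivar. m6280-3p stood at 33.5 ± 4.03 CPM in Red beauty and 89.0 ± 9.64, 83.3 ± 10.4 and 79.4 ± 21.3 in Black kingkong, Longshu No.7 and LK99 (adjusted p = 0.0010, 0.0025 and 0.0026). m4873-5p stood at 28.8 ± 3.23 CPM in Red beauty and 59.8 ± 3.92, 68.5 ± 23.3 and 91.0 ± 43.5 in the same order (adjusted p = 0.024, 0.017 and 0.0023). Its calls to Black kingkong and Longshu No.7 were lost without Red beauty replicate 2 or 3, and that to Black kingkong also without Black kingkong replicate 2, with adjusted p up to 0.080. m1927-5p stood at 14.7 ± 2.19 CPM in Red beauty, 26.2 ± 16.1 in Longshu No.7, 84.6 ± 26.5 in Black kingkong and 131 ± 20.3 in LK99, and its log2 difference between Red beauty and LK99 was -3.15 ± 0.48 (adjusted p = 0.0003). m4441-5p, also lower in Red beauty than in each other cultivar, had the same order of means, with 0.178 ± 0.184 CPM in Red beauty, 2.36 ± 2.14 in Longshu No.7, 5.82 ± 0.727 in Black kingkong and 18.2 ± 3.23 in LK99. Its call between Red beauty and Longshu No.7 (adjusted p = 0.018) was lost without Longshu No.7 replicate 1 or Red beauty replicate 1 or 2, with adjusted p up to 0.084, and was 1.7e-05 without the doubted replicates 3. m4142-3p stood at 79.7 ± 10.4 CPM in Red beauty and 22.4 ± 18.8 in LK99, where replicate 3 was at 1.94. Its call between these cultivars (adjusted p = 0.039) was lost in 13 of 22 alternatives, with adjusted p up to 0.14, and was 0.00028 without the doubted replicates 3. For m4441-5p and m4142-3p, the smaller p-value follows in part from leaving out a library in which the member lay low.

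At the edge of the rule, m5616-3p with 304 counts and m3301-3p with 300 were just inside. m0436-5p with 296 and m3444-5p with 292 were just outside. A total of 300 is a mean of 25 counts per library.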

How the data were processed

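Small RNA of 18 to 30 nt was sequenced from tubers of 4 cultivars, with 3 libraries each. Per the file headers, the authors deposited raw counts of each mature miRNA in each library, as whole numbers without normalization, and the deposited length column gives another unit (other), the number of bases. The sources used here do not state the aligner, counting rule, hairpin prediction or genome build. The columns headed TPM were not used. Counts were tested with edgeR 4.0.16 (R 4.3.3, limma 3.58.1), a quasi-likelihood fit over 12 libraries with 1 coefficient per cultivar, TMM scaling, filterByExpr (minimum count 10, minimum total 15) and Benjamini-Hochberg adjustment over 1349 entries. SEs are the absolute log2 difference over the square root of F. The fit was tested on simulated counts.

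A cultivar at 0 counts was given a floor of 3 counts over its libraries, and ratios to 1 to 3 counts have exact binomial 95% intervals. Both cover counting error only, since PCR copies are not independent molecules. Sequences are near-identical within a shift of 3 bases and 2 mismatches.

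The members and the lists were chosen with earlier results of these data known. Members were named by rule: the 10 of highest mean CPM, the 2 largest changes per pair and direction without overlap, the 2 strongest per cultivar and split, related sequences of largest total, the 3 steadiest and those at the threshold. Others, such as m3099-3p, m2067-3p and the members that vary together, were named after their values were seen. Alternatives were DESeq2 1.42.0, other scalings, filters and collapsing rules, a replicate block and left-out libraries.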

Additional observations from a re-analysis of the deposited data

How the results depend on the processing

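Of 283 member calls at the 0.05 threshold, 186 held in every alternative, 97 were lost in 1 or more, and no member named by rule changed direction. Leaving out both doubted replicates 3 gave 46 members between Red beauty and Longshu No.7 (29 in the full set), 36 between Longshu No.7 and LK99 (20), 25 apart in Red beauty (17), 21 in Black kingkong (13), 14 in LK99 (6), 11 in Longshu No.7 (4) and 20 in a split (11); fewer libraries were fitted. With a filter of 10 CPM in 3 libraries, fewer members were tested, and 26 differed between Black kingkong and Longshu No.7 (40), 17 between Black kingkong and LK99 (27) and 3 were apart in LK99. DESeq2, and the lack of a filter, gave 8 apart in Longshu No.7. Library size alone gave 11 apart in LK99, and summed counts gave 2 apart in Longshu No.7 and 7 in a split. Pairs fitted alone gave 12 between Longshu No.7 and LK99, and the cause was not tested. Shares of all entries are given only for the fit without both doubted replicates 3. The other counts, here and below, thus describe the processing and nothing particular to the members.

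Leaving out 1 library at a time gave 60 to 74 members that differ among the cultivars. The pairs gave 44 to 59, 31 to 44, 23 to 35, 15 to 39, 37 to 49 and 14 to 31, in the order of the report. Red beauty against Longshu No.7 gave 15 to 19 without any 1 of the Red beauty libraries or Longshu No.7 replicate 1 or 2, where members apart in Red beauty were 10 or 11. The highest for Longshu No.7 against LK99, 31, and for members apart in Longshu No.7 and in LK99, 12 and 10, came without Longshu No.7 replicate 3. The lowest for Black kingkong came without its replicate 1, those for Longshu No.7 without LK99 replicate 1 or Red beauty replicate 3, and those for a split without Black kingkong replicate 2, Longshu No.7 replicate 1 or Red beauty replicate 2. Members apart numbered 10 to 23 in Red beauty, 8 to 16 in Black kingkong, 5 to 10 in LK99, 2 to 12 in Longshu No.7 and 7 to 15 in a split. Whether replicate numbers pair the libraries was not settled. The r of same-numbered deviations was -0.07 to 0.15 and exceeded 0.1 in 2 of 18 pairs. Of 12 libraries, 7 were closest to their own number. With the number as a replicate block, 68 members differed among the cultivars, 56 between Black kingkong and Red beauty and 17 between Longshu No.7 and LK99. Members near 300 counts rest on about 25 counts per library, which limits what can be called.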
